A study of Homo sapiens with 4 samples.

Results

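Transcripts of the respiratory chain complexes II, III and IV and of the ATP synthase, complex V, were measured by RNA-seq in the human line TPC1, which came from a papillary thyroid carcinoma and carries a CCDC6-RET fusion. The genes were taken by symbol from a table of 20372 genes: the 4 SDH genes of complex II, all UQCR genes and CYC1 of complex III, the numbered COX genes and MT-CO genes of complex IV, MT-CYB, and the ATP5 and MT-ATP genes of complex V. This gave 68 entries with 66 distinct symbols, because SDHD and UQCR11 each appear under 2 Ensembl identifiers. Of these entries, 47 were nuclear genes of subunits and 6 were subunit genes of the mitochondrial genome. The other 15 were assembly factors, related proteins, processed copies and 1 readthrough gene that the symbols also matched. A filter on low counts left 59 entries for testing.

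The cells were grown in DMEM with serum and treated with BGJ398, a small molecule inhibitor of FGF receptor kinases, for 24 h or for 6 h. Each time had 2 libraries, labelled replicates 1 and 2. All 4 libraries came from the same line and the same inhibitor, so the comparison asks how transcript levels at the later time differed from those at the earlier time, with no untreated library analysed here. The dose is written in micromolar units in the labels and in nanomolar units in the methods of the study, so its unit is unsettled.

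Complex II, succinate dehydrogenase, passes electrons from succinate to ubiquinone and is also an enzyme of the citric acid cycle. Complex III passes them on to cytochrome c, complex IV passes them to oxygen, and complex V uses the resulting proton gradient to make ATP. Complex II is built from nuclear genes alone, whereas the catalytic core of complex III and of complex IV and the proton channel of complex V also need subunits made inside mitochondria from mitochondrial DNA. Cells therefore draw each of these complexes from a pair of genomes with separate transcription. Nuclear genes of these subunits are known targets of NRF1, of ETS factors such as GABP and of YY1, and mitochondrial genes are transcribed as long polycistronic RNAs that are cut into single messengers.

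Promoter sequences of 1 subunit gene per complex are shown, each chosen as the one with the most kinds of motif match among the promoters of its complex, whereas 7 of the 30 promoters searched held no match and 14 held 1 kind. Each run holds 300 bases, from 250 before to 50 after the RefSeq transcription start on GRCh38.p14, and is written 5′ to 3′ on the strand of the gene. Capitals mark matches on either strand to the cores of NRF1 (GCGCATGC), ETS factors (CCGGAAG), YY1 (AAGATGGC) and SP1 (GGGCGGG).
SDHB, complex II, chr1:17053983-17054282, minus strand: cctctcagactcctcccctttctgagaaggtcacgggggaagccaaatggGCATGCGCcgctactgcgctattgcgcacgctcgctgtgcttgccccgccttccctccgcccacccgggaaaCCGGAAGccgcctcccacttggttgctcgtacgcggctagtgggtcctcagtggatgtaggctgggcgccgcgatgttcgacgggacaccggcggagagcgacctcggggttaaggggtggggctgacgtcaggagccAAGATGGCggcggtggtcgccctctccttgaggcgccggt
UQCR11, complex III, chr19:1605413-1605712, minus strand: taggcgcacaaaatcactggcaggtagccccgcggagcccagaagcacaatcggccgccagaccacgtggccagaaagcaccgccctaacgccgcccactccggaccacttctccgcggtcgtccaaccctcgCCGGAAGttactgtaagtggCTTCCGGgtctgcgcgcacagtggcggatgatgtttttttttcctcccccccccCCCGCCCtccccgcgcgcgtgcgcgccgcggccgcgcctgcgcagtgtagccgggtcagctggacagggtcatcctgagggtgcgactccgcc
COX5B, complex IV, chr2:97645812-97646111, plus strand: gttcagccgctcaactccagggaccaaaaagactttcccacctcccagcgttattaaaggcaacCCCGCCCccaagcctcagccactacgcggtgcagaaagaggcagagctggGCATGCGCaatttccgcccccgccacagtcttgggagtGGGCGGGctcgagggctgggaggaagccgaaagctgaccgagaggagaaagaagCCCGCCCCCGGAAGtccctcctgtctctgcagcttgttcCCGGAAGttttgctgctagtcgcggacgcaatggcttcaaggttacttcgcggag
ATP5J (current symbol ATP5PF), complex V, chr21:25735005-25735304, minus strand: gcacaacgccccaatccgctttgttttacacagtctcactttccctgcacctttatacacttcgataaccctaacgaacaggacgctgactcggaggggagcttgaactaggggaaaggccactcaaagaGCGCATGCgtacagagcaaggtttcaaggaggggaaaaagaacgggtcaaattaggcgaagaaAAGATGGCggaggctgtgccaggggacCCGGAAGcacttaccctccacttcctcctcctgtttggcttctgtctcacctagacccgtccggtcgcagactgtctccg

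Of the 39 nuclear subunit genes tested, 30 had a promoter in the RefSeq table. The NRF1 core was found in 8 of the 30 (26.7%), against 3.27% of all 27305 promoters and 5.53% of the 10083 promoters of tested genes. The ETS core was found in 14 (46.7%), against 10.7% of all promoters and 19.3% of those of tested genes. The YY1 core was found in 5 (16.7%), against 3.03% and 5.46% in the same order. The SP1 core was found in 8 (26.7%), against 32.9% and 54.3%. No core of these 4 was found in 7 promoters, 1 kind in 14, 2 kinds in 6 and 3 kinds in 3. These matches describe letters in a window and are not measured binding sites.

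Both genes of complex V on mitochondrial DNA lie on 1 messenger and overlap. MT-ATP8 is 207 bases long, MT-ATP6 is 681 bases long, and they share 46 bases in different reading frames. The shared stretch is shown because reads within it belong to both genes, with capitals for the start codon of MT-ATP6 and the stop codon of MT-ATP8: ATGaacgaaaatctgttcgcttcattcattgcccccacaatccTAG

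Library totals were 25089167 and 24958447 counts for the 24 h libraries, against 25212226 and 26325512 for the 6 h libraries. All 13 protein genes of the mitochondrial genome together took 1.68% and 2.98% of counts at 24 h and 1.09% and 1.40% at 6 h, the highest value being that of 24 h replicate 2. Of the thyroid markers, PAX8 was abundant, with 24152 and 25204 counts at 24 h against 26142 and 28801 at 6 h, and TG was low, with 350 to 421 counts per library. NKX2-1 and TSHR were at 0 counts in all 4 libraries, and SLC5A5 was at 0 to 1 counts. Among leukocyte and blood markers, CD3E, HBA1 and HBB were at 0, and the summed level of that list lay between 0.74 and 1.1 CPM in the libraries, where CPM are counts per 1000000 counts of the scaled library total. Whether replicates were separate cultures is not stated, so a p-value here speaks to differences among 4 libraries, whose spread may be technical.

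Subunit transcripts of both genomes were more abundant at 24 h than at 6 h, and mitochondrial-encoded ones by more. Over the 6 mitochondrial-encoded subunits the median log2 fold change of 24 h over 6 h was 0.86, and over the 39 nuclear subunits tested it was 0.35, against 0.00019 over all 12549 genes tested. The fold change was positive in 6 of 6 mitochondrial-encoded subunits, in 37 of 39 nuclear subunits and in 12 of the 14 other genes tested, against 50.0% of all genes. No single member passed the quasi-likelihood test of edgeR after Benjamini-Hochberg adjustment over all genes, nor did any other gene (0 of 12549, 0.0%), and the smallest adjusted p was 0.173. At an unadjusted p under 0.05, edgeR had 42 of 59 members, against 24.4% of all genes. DESeq2, run as the second tool, called 16 of the 50 members that it gave an adjusted p, all higher at 24 h, against 5.59% of the 7410 genes with one. It called 0 members lower, against 2.65%. These members were 13 nuclear subunits and 3 other genes, and DESeq2 called 0 of the 6 mitochondrial-encoded subunits. A level here is a share of the RNA in a bulk culture, so fewer cells of a type and less RNA per cell cannot be told apart.

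**Figure D1:**
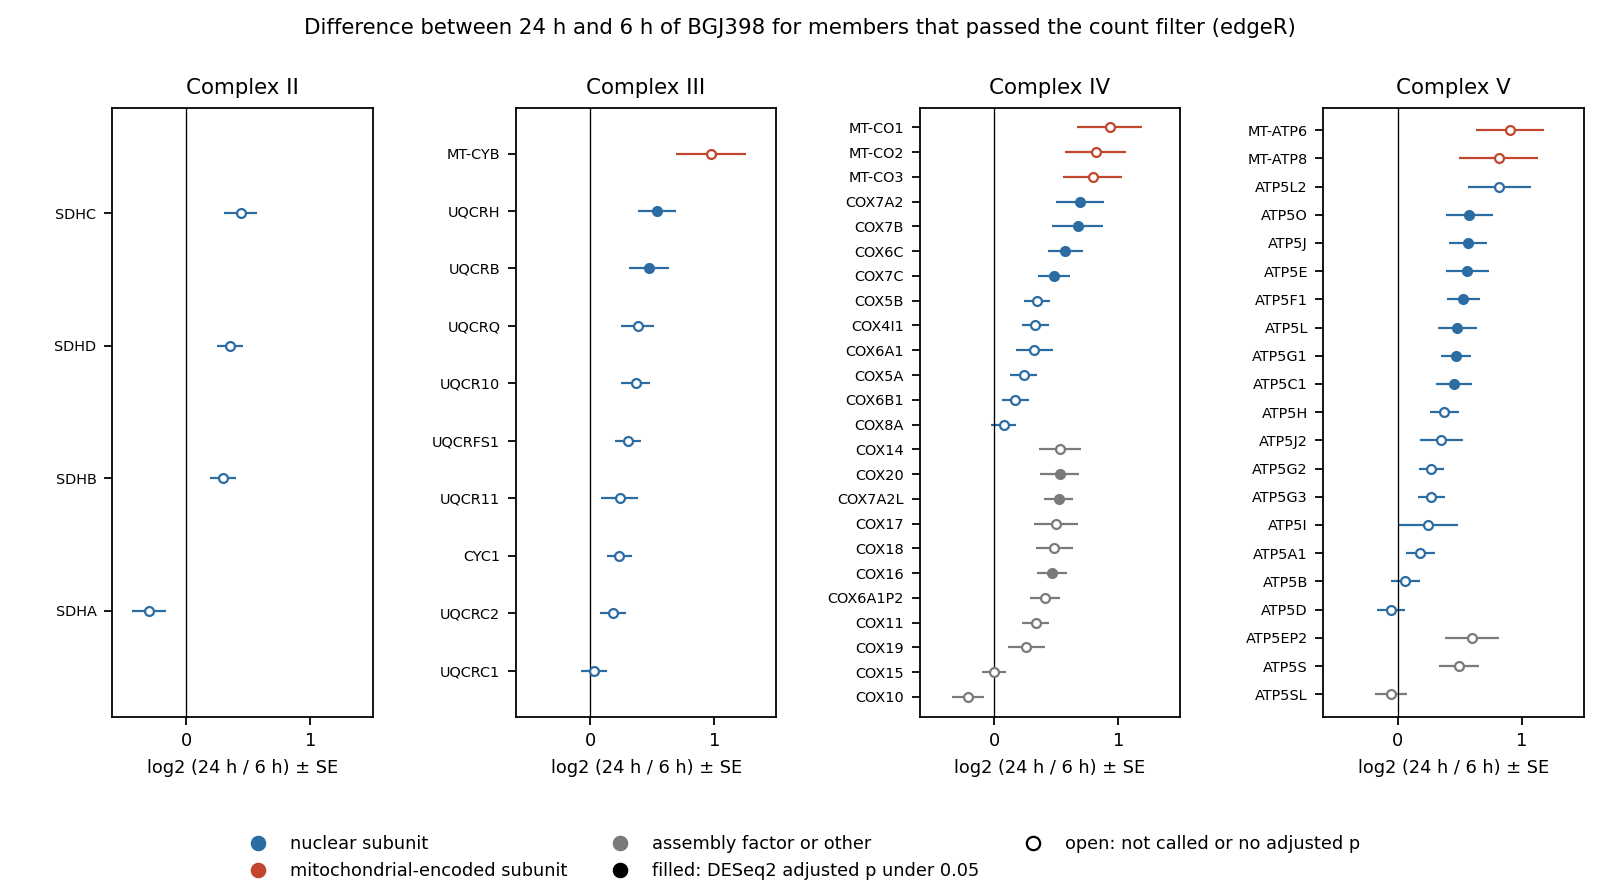
The log2 fold change of 24 h over 6 h (x axis, edgeR, with bars of 1 standard error) is drawn for each of the 59 members that passed the filter, in 1 panel per complex. The mitochondrial-encoded subunits lie between 0.79 and 0.97, the nuclear subunits between -0.30 (SDHA) and 0.82 (ATP5L2), and filled points mark the 16 members called by DESeq2.

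The libraries of 24 h differed from each other in these genes about as much as the times did. The median log2 difference of 24 h replicate 2 over replicate 1 was 0.85 for mitochondrial-encoded and 0.30 for nuclear subunits, and that of 6 h replicate 2 over replicate 1 was 0.31 and 0.072. In 52 of 59 members 24 h replicate 2 had the highest level of the 4 libraries, against 39.2% of all genes. In 41 members the levels stood in the order 6 h replicate 1, 6 h replicate 2, 24 h replicate 1, 24 h replicate 2 from low to high, against 20.8% of all genes. Both 24 h libraries lay above both 6 h libraries in 47 members, against 31.3% of all genes, and below them in 2 members, SDHA and COX10, against 31.5% (62.8% of all genes in either direction). The order of the 4 libraries from low to high was the reverse in 2 members, against 22.2%.
Without 24 h replicate 2 the medians were 0.38 for mitochondrial-encoded and 0.22 for nuclear subunits, and without 24 h replicate 1 they were 1.26 and 0.51. The 16 members called by DESeq2 had a median of 0.53, and of 0.29 without 24 h replicate 2, where they ran from 0.21 to 0.38. If 24 h replicate 1 was dropped instead, these 16 ran from 0.60 to 0.98, with 0.72 as their median. Dropping 6 h replicate 1 brought their median to 0.48, and dropping 6 h replicate 2 to 0.59. How many members DESeq2 called depended on the library dropped, and so did its calls over all genes. Those calls therefore do not set the members apart from other genes. With a trend of fold change on transcript length and GC content removed, the medians were 0.48 for mitochondrial-encoded and 0.093 for nuclear subunits. The fold change was then positive in 5 of 6 mitochondrial-encoded and 30 of 39 nuclear subunits, against 6468 of all 12549 genes. The members were short, with a median transcript length of 734 bases for mitochondrial-encoded and 1015 bases for nuclear subunits, against 3374 bases over all genes tested. The part of length in these differences was not tested beyond that fit.

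**Figure D2:**
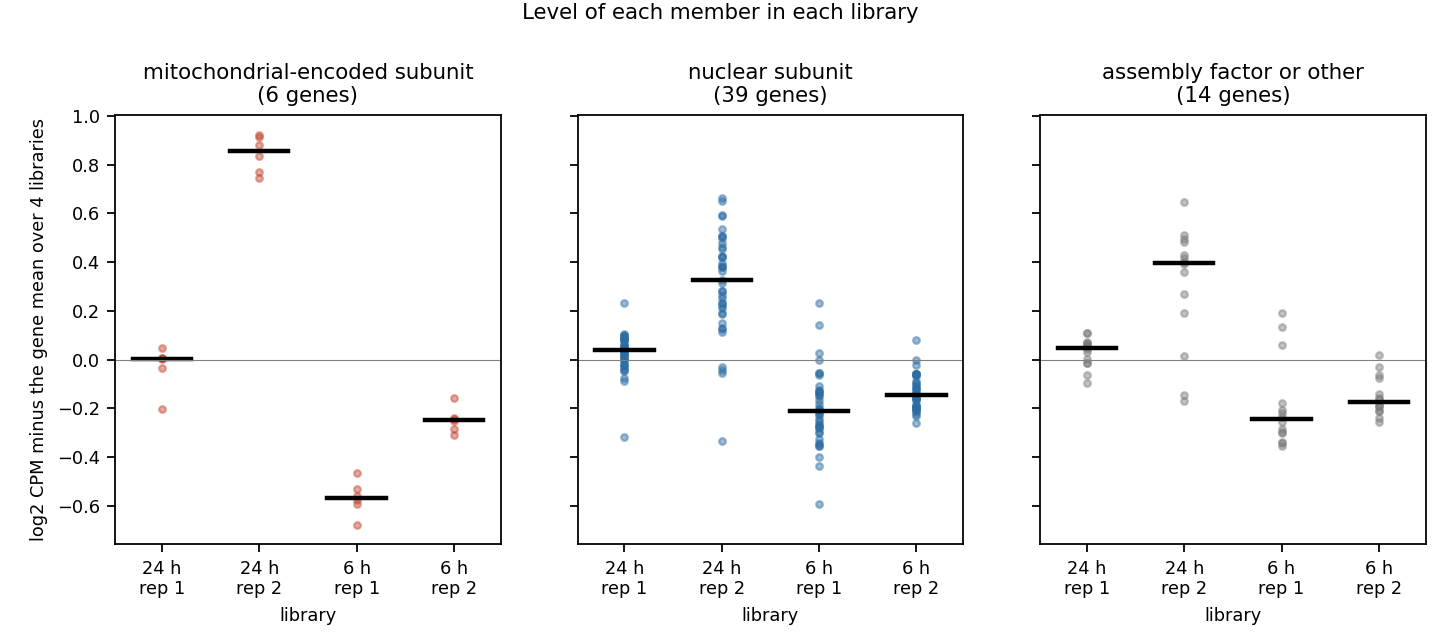
Each point is the log2 CPM of a member in a library minus its mean over the 4 libraries (y axis), for mitochondrial-encoded subunits, nuclear subunits and the other matched genes, and black lines are medians over the genes. The median of 24 h replicate 2 lies highest in each panel, and that library was the highest in 52 of the 59 members.

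The mitochondrial-encoded subunits are the hydrophobic cores of their complexes. MT-CO1 (ENSG00000198804, chromosome M, 5904 to 7445 in the file), which holds the heme and copper centre where complex IV reduces oxygen, was at 5142 and 8862 CPM at 24 h and at 3336 and 4011 CPM at 6 h. The times did not overlap, but the 24 h libraries stood further apart than 24 h replicate 1 stood from 6 h replicate 2. Its log2 fold change was 0.93 ± 0.26 (SE, 2 libraries per time), and the adjusted p was 0.173 by edgeR against 0.112 by DESeq2.
MT-CO2, which takes electrons from cytochrome c, was at 1918 and 3258 CPM at 24 h and at 1322 and 1614 CPM at 6 h. MT-CO3, the other core subunit, was at 3199 and 5350 CPM at 24 h and at 2313 and 2618 CPM at 6 h. In both genes the 24 h libraries lay above the 6 h libraries, with log2 fold changes of 0.82 ± 0.25 and 0.79 ± 0.24.

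MT-CYB (chromosome M, 14747 to 15887), cytochrome b of complex III and its only subunit from mitochondrial DNA, was at 969.5 and 1819 CPM at 24 h and at 604.8 and 818 CPM at 6 h. It had the largest log2 fold change of the 6 in the fit over all libraries, 0.97 ± 0.28 (adjusted p = 0.173 by edgeR, 0.171 by DESeq2). MT-ATP6, the subunit beside the rotating ring of complex V, was at 980.5 and 1848 CPM at 24 h and at 666.5 and 844.6 CPM at 6 h, without overlap. MT-ATP8 was the 1 mitochondrial-encoded member whose times overlapped, with 87.2 and 190.1 CPM at 24 h and 68.0 and 89.8 CPM at 6 h. The log2 fold changes were 0.90 ± 0.28 for MT-ATP6 and 0.81 ± 0.32 for MT-ATP8. These genes overlap by the 46 bases shown above, and how reads there were counted is not given.
Without 24 h replicate 2 the 6 fold changes ran from 0.14 (MT-ATP8) to 0.49 (MT-CO1) on the log2 scale, and without 24 h replicate 1 from 1.11 (MT-CO3) to 1.35 (MT-CYB). Removal of the length and GC trend brought MT-ATP8, the shortest, to -0.0017 and left MT-CO1 at 0.76 and MT-CYB at 0.73.

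Per length, the 6 genes kept a wide order of levels. In CPM per kilobase, MT-CO3 was at 4080 and 6824 at 24 h and at 2950 and 3339 at 6 h, MT-CO1 at 3335 and 5747 against 2163 and 2601, and MT-CO2 at 2805 and 4763 against 1933 and 2359. Within each library the order was MT-CO3, MT-CO1, MT-CO2, MT-ATP6, MT-CYB and MT-ATP8, from high to low. Across libraries the ranges of neighbours in that order overlapped, so that the order within a library was steadier than the levels.
Ratios between these genes moved much less than their levels. The count ratio of MT-CO2 to MT-CO1 was 0.373 and 0.368 at 24 h and 0.396 and 0.402 at 6 h, and that of MT-CO3 to MT-CO1 was 0.622 and 0.604 at 24 h and 0.693 and 0.653 at 6 h. Both ratios were lower in both 24 h libraries. The ratio of MT-CYB to MT-CO1 was 0.189 and 0.205 at 24 h and 0.181 and 0.204 at 6 h, and that of MT-ATP8 to MT-ATP6 was 0.0889 and 0.103 at 24 h and 0.102 and 0.106 at 6 h. For these ratios the times overlapped for MT-CYB and MT-ATP8. With 2 libraries per time an exact permutation test cannot give a two-sided p under 0.333, so none was run on ratios or shares.

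Complex II was the complex whose catalytic subunit went against the others. SDHA (ENSG00000073578, chromosome 5, 218356 to 256815 on hg19), the flavoprotein that oxidises succinate, was at 126 and 98.9 CPM at 24 h and at 146 and 132 CPM at 6 h. Both 24 h libraries lay below both 6 h libraries, with a log2 fold change of -0.30 ± 0.13 (adjusted p = 0.212 by edgeR, 0.156 by DESeq2). Leaving out 24 h replicate 2 brought it to -0.14, and leaving out 24 h replicate 1 to -0.49. SDHA has close copies in the genome, and the sources used here do not say how shared reads were counted.
SDHB, the iron-sulfur subunit, was at 95.6 and 108 CPM at 24 h and at 80.8 and 85.3 CPM at 6 h. SDHC, a membrane anchor, was at 90.4 and 114 CPM at 24 h and at 72.3 and 78.8 CPM at 6 h. SDHD, the other anchor, was at 80.6 and 91.8 CPM at 24 h and at 66.3 and 69.2 CPM at 6 h, and its second entry had 0 counts in all libraries. These 3 subunits were higher in both 24 h libraries, with log2 fold changes of 0.29 ± 0.10, 0.44 ± 0.13 and 0.35 ± 0.10, and edgeR adjusted p-values of 0.174, 0.173 and 0.173. DESeq2 gave SDHC an adjusted p of 0.0504 and called none of the 4. With the length and GC trend removed, SDHA was at -0.25, SDHC at 0.25, SDHB at 0.036 and SDHD at 0.0081 on the log2 scale.

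In complex III, 9 of 9 nuclear subunits tested had a positive fold change, and both core proteins had the lowest values. UQCRC1, a core protein, was at 219.6 and 199 CPM at 24 h and at 211 and 199 CPM at 6 h. Its libraries overlapped and its log2 fold change was 0.032 ± 0.11, a value that turned to -0.044 without 24 h replicate 1. UQCRC2, the second core protein, had 0.18 ± 0.10, and CYC1, the cytochrome c1 that passes electrons to cytochrome c, had 0.23 ± 0.10 at 268 and 274 CPM at 24 h and 227 and 234 CPM at 6 h.
UQCRH, the acidic hinge protein by cytochrome c1 (chromosome 1, 46769303 to 46782448), was at 129 and 179 CPM at 24 h and at 103 and 109 CPM at 6 h. UQCRB, a small subunit of the ubiquinone site, was at 459 and 628 CPM at 24 h and at 373 and 409 CPM at 6 h. Both rose by DESeq2 (adjusted p = 0.0255 for UQCRH and 0.0381 for UQCRB), with log2 fold changes of 0.54 ± 0.15 and 0.48 ± 0.16 and edgeR adjusted p-values of 0.173 and 0.174. They were at 0.28 and 0.23 without 24 h replicate 2. After removal of the length and GC trend UQCRH was at 0.13 and UQCRB at 0.47, while UQCRC2 was at 0.0010. The transcript lengths in that fit were 537 bases for UQCRH, 8459 for UQCRB and 1914 for UQCRC2. The other subunits, UQCRFS1 (the Rieske iron-sulfur protein), UQCR10, UQCR11 and UQCRQ, had values from 0.24 (UQCR11) to 0.38 (UQCRQ) and were called by neither tool, DESeq2 giving UQCR11 no adjusted p. The second UQCR11 entry had 0 counts in all libraries.

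In complex IV the small subunits around the core were higher at 24 h in 10 of 10 genes tested, or in 7 of 10 with the length and GC trend removed. COX7A2 (ENSG00000112695, chromosome 6, 75947391 to 75960039), the widely expressed form of subunit 7A, was at 156 and 244.6 CPM at 24 h and at 118 and 130.0 CPM at 6 h. The times did not overlap, and 24 h replicate 2 stood 1.56 times above replicate 1. It rose by DESeq2 (adjusted p = 0.0153), with a log2 fold change of 0.69 ± 0.19 and an edgeR adjusted p of 0.173. It was at 0.33 without 24 h replicate 2.
COX7B was at 109 and 176 CPM at 24 h and at 82.2 and 96.7 CPM at 6 h, with 0.67 ± 0.21 on the log2 scale. COX6C was at 275 and 353 CPM at 24 h and at 200.3 and 222 CPM at 6 h, with 0.57 ± 0.14. COX7C was at 203 and 252.6 CPM at 24 h and at 158.6 and 167 CPM at 6 h, with 0.48 ± 0.13. These 3 small membrane subunits also rose by DESeq2 (adjusted p = 0.0211, 0.0132 and 0.0234 in the order given). With the length and GC trend removed, COX7A2 was at 0.26, COX6C at 0.12 and COX7C at -0.0027. COX7B was at 0.29, COX6C at 0.38 and COX7C at 0.32 without 24 h replicate 2.
COX4I1, the largest nuclear subunit and a site of regulation by ATP, was at 388 and 426.7 CPM at 24 h and at 324 and 323 CPM at 6 h, with a log2 fold change of 0.33 ± 0.11 and a DESeq2 adjusted p of 0.0655, or 0.11 on the log2 scale with the trend removed. COX6B1, which sits where the complex forms its dimer, had 0.17 ± 0.11, and COX8A had 0.076 ± 0.10. Both were called by neither tool, and with the length and GC trend removed they were at -0.14 and -0.19. The remaining subunits tested, COX5A, COX5B and COX6A1, had values from 0.24 to 0.35.

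Several subunits of complex IV have a second form that is known from muscle, lung or testis. Of these, COX4I2, COX6A2, COX7B2 and COX8C had 0 counts in all 4 libraries, where 0 counts allows a level of up to 0.111 to 0.122 CPM (3 counts per library, counting error only). COX7A1, the muscle form of subunit 7A, had 2 and 0 counts at 24 h against 0 and 1 at 6 h. COX6B2, the testis form of subunit 6B, had 3 and 2 counts at 24 h against 1 and 0 at 6 h. The widely expressed forms thus took nearly all counts of their subunits at both times.
For COX6A1, most of the counts lay at a copy. COX6A1P2 on chromosome 6 (37012607 to 37013177), which is named as a pseudogene of COX6A1 on chromosome 12, took 57.5% and 55.0% of their summed level at 24 h and 55.5% and 53.8% at 6 h. Of its 281 windows of 50 bases, 181 also occur in COX6A1, so their reads may have been split between them. Summed, they were at 115 and 150.0 CPM at 24 h and at 101 and 104.5 CPM at 6 h, a log2 ratio of 0.37 against 0.33 for COX6A1 alone.

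In complex V, 15 of 16 nuclear subunits had a positive fold change. ATP5A1, the alpha subunit, was at 848 and 888 CPM at 24 h and at 779.5 and 753 CPM at 6 h. ATP5B, the catalytic beta subunit, was at 660.0 and 607 CPM at 24 h and at 620.4 and 596.5 CPM at 6 h. ATP5A1 did not overlap between the times (0.18 ± 0.12 on the log2 scale), ATP5B did (0.059 ± 0.12), and neither was called by edgeR (adjusted p = 0.351 and 0.764) or DESeq2 (0.310 and 0.792). With the length and GC trend removed ATP5A1 was at 0.29 and ATP5B at -0.0025, with lengths of 5761 and 1759 bases in that fit.
ATP5D, the delta subunit of the central stalk, was the 1 nuclear subunit of complex V with a negative value, -0.057 ± 0.11, and turned to 0.061 without 6 h replicate 1. ATP5C1, the gamma subunit that rotates within the head, was at 236 and 312 CPM at 24 h and at 192 and 208 CPM at 6 h. ATP5E, the epsilon subunit, was at 237 and 343 CPM at 24 h and at 186 and 208 CPM at 6 h. Gamma and epsilon rose by DESeq2 (adjusted p = 0.0408 and 0.0262), with log2 fold changes of 0.45 ± 0.14 and 0.56 ± 0.17. They were at 0.24 and 0.26 without 24 h replicate 2. After removal of the trend ATP5C1 was at 0.13, ATP5E at 0.40 and ATP5D at -0.14.

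The peripheral stalk holds the head still against rotation. ATP5F1, its long subunit b (chromosome 1, 111991486 to 112005395), was at 179.7 and 225.5 CPM at 24 h and at 134 and 147 CPM at 6 h. ATP5J, factor 6, whose promoter is shown above, was at 91.8 and 127 CPM at 24 h and at 69.9 and 78.0 CPM at 6 h. ATP5O, the protein that ties the stalk to the head and gives the enzyme its sensitivity to oligomycin, was at 61.3 and 95.0 CPM at 24 h and at 49.9 and 54.9 CPM at 6 h. These 3 rose by DESeq2 (adjusted p = 0.0193, 0.0235 and 0.0379), with log2 fold changes of 0.53 ± 0.13, 0.57 ± 0.16 and 0.58 ± 0.19 and edgeR adjusted p-values of 0.173. After removal of the length and GC trend they were at 0.32, 0.044 and 0.25, and without 24 h replicate 2 at 0.35, 0.31 and 0.23.
ATP5H, the fourth stalk subunit, had 0.37 ± 0.12 and was not called. ATP5L, subunit g in the membrane, had 0.48 ± 0.16 and a DESeq2 adjusted p of 0.0494, and was at 0.21 without 24 h replicate 2 and at 0.071 with the trend removed. ATP5I and ATP5J2, subunits e and f, had 0.24 ± 0.25 and 0.35 ± 0.18 and were low at 9.39 to 28.6 CPM. Their edgeR adjusted p-values were 0.536 and 0.249, and DESeq2 gave them none.

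The rotating ring of complex V is made of subunit c, which 3 genes encode as the same mature protein. ATP5G1 was at 85.8 and 106 CPM at 24 h and at 67.6 and 71.0 CPM at 6 h. It rose by DESeq2 (adjusted p = 0.0333), with a log2 fold change of 0.47 ± 0.12, or 0.31 without 24 h replicate 2. ATP5G2 was at 221.5 and 238 CPM at 24 h and at 188 and 193 CPM at 6 h. ATP5G3 was at 223 and 252 CPM at 24 h and at 197 and 197 CPM at 6 h. Both had 0.27 ± 0.10 to 0.27 ± 0.11 and were not called by DESeq2 (adjusted p = 0.136 and 0.148). With the length and GC trend removed ATP5G1 was at 0.23, ATP5G2 at 0.034 and ATP5G3 at 0.038. ATP5G1 took 16.2% and 17.7% of the summed level at 24 h and 14.9% and 15.4% at 6 h, so its share was higher in both 24 h libraries. The 3 messengers shared no window of 50 bases.
Copies of complex V genes were low or partly shared. ATP5EP2, a copy of ATP5E, took 10.6% and 12.0% of their summed level at 24 h and 11.2% and 11.0% at 6 h, had 0.60 ± 0.22 on the log2 scale and shares 15 of its 107 windows with ATP5E. ATP5L2, which shares 19 of its 750 windows with ATP5L, was at 2.81 and 3.61 CPM at 24 h and at 1.59 and 2.04 CPM at 6 h, with the largest value of the nuclear members, 0.82 ± 0.25, and no adjusted p from DESeq2. With the length and GC trend removed ATP5EP2 was at -0.16.

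Taken by complex, the nuclear subunits took rather different parts of the libraries, with ratios of 24 h to 6 h from 1.11 to 1.34. Complex II subunits took 0.0395% and 0.0412% of counts at 24 h and 0.0356% and 0.0374% at 6 h. Complex III subunits took 0.151% and 0.177% at 24 h and 0.125% and 0.137% at 6 h. Complex IV subunits took 0.162% and 0.201% at 24 h and 0.128% and 0.142% at 6 h, and complex V subunits took 0.313% and 0.353% at 24 h and 0.265% and 0.281% at 6 h. Both 24 h libraries lay above both 6 h libraries in each complex, and the ratios of the means were 1.11 for complex II, 1.25 for complex III, 1.34 for complex IV and 1.22 for complex V.
Wilson intervals (95%) of these shares reached at most 0.0023 percentage points to either side and cover counting error only. The low ratio of complex II rested on SDHA, without which its log2 ratio was 0.36 in place of 0.15. As medians of log2 fold changes over genes tested, complex II was at 0.32 (4 genes) and complex III at 0.30 (9 genes). Complex IV was at 0.34 (10 genes) and complex V at 0.41 (16 genes). The spread of these medians between libraries of the same time had an SD of 0.10 for complex II to 0.20 for complex V. The order of the complexes is thus not distinguished. Of genes with an adjusted p, DESeq2 called higher 0 of 4 in complex II and 2 of 8 in complex III. It called 4 of 10 in complex IV and 7 of 13 in complex V, against 5.59% of all genes. Without 24 h replicate 2 the medians were 0.23, 0.20, 0.25 and 0.22, and with the trend on length and GC taken out 0.022, 0.13, 0.058 and 0.058.

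**Figure D3:**
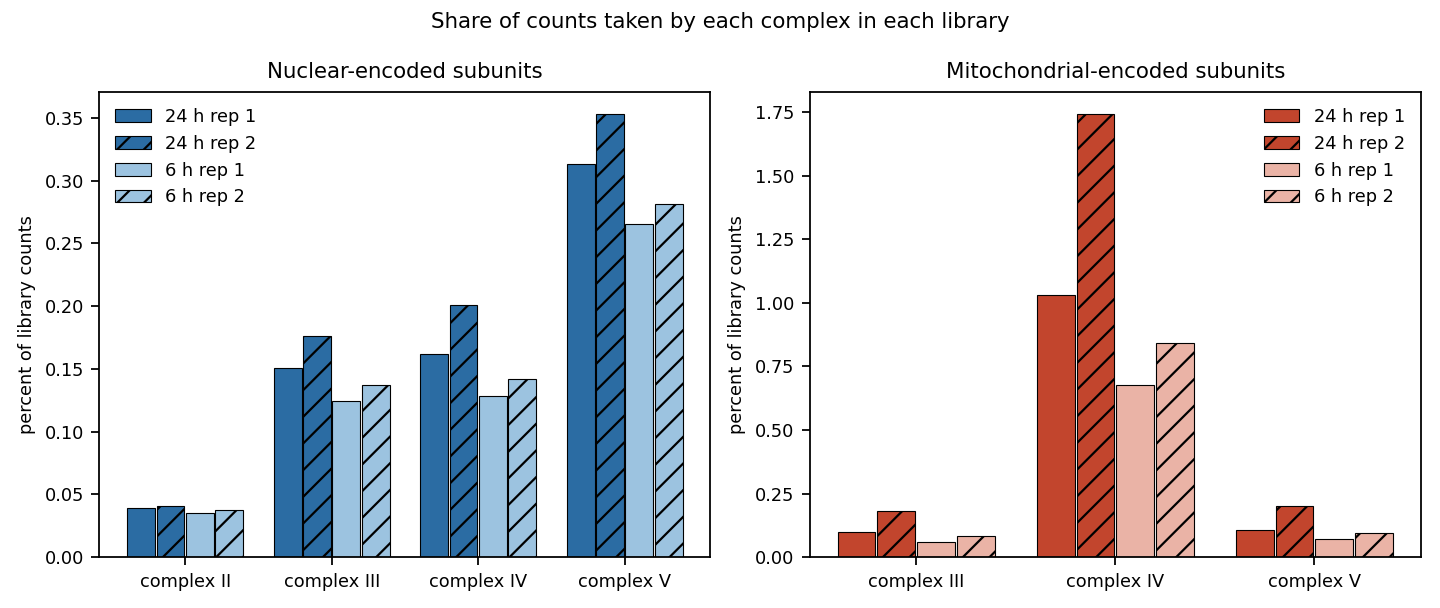
Bars give the percent of all counts of a library (y axis, from 0) taken by the subunit genes of each complex, with 24 h libraries in dark and 6 h libraries in light colour and replicate 2 hatched. Nuclear subunits run from 0.0356% (complex II, 6 h replicate 1) to 0.353% (complex V, 24 h replicate 2), and the mitochondrial-encoded subunits of complex IV reach 1.74% in 24 h replicate 2.

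Mitochondrial-encoded subunits took more counts than nuclear subunits in every library, and their ratio was higher at 24 h. All 6 together took 1.24% and 2.13% of counts at 24 h and 0.809% and 1.02% at 6 h, and nuclear subunits took 0.665% and 0.772% at 24 h and 0.554% and 0.597% at 6 h. Their count ratio was thus 1.86 and 2.76 at 24 h and 1.46 and 1.71 at 6 h, without overlap.
Within complex III the ratio of MT-CYB to the nuclear subunits was 0.647 and 1.03 at 24 h and 0.472 and 0.612 at 6 h. Within complex IV it was 6.37 and 8.68 at 24 h and 5.28 and 5.95 at 6 h, and within complex V it was 0.343 and 0.576 at 24 h and 0.270 and 0.340 at 6 h. In each complex both 24 h libraries lay above both 6 h libraries, with 24 h replicate 1 close to 6 h replicate 2 in complexes III and V. The difference between the medians of mitochondrial-encoded and nuclear log2 fold changes was 0.51, and it was 0.16 without 24 h replicate 2, 0.76 without 24 h replicate 1 and 0.39 with the length and GC trend removed. It was not tested, because the exact permutation test over 2 libraries per time cannot give a two-sided p under 0.333.

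**Figure D4:**
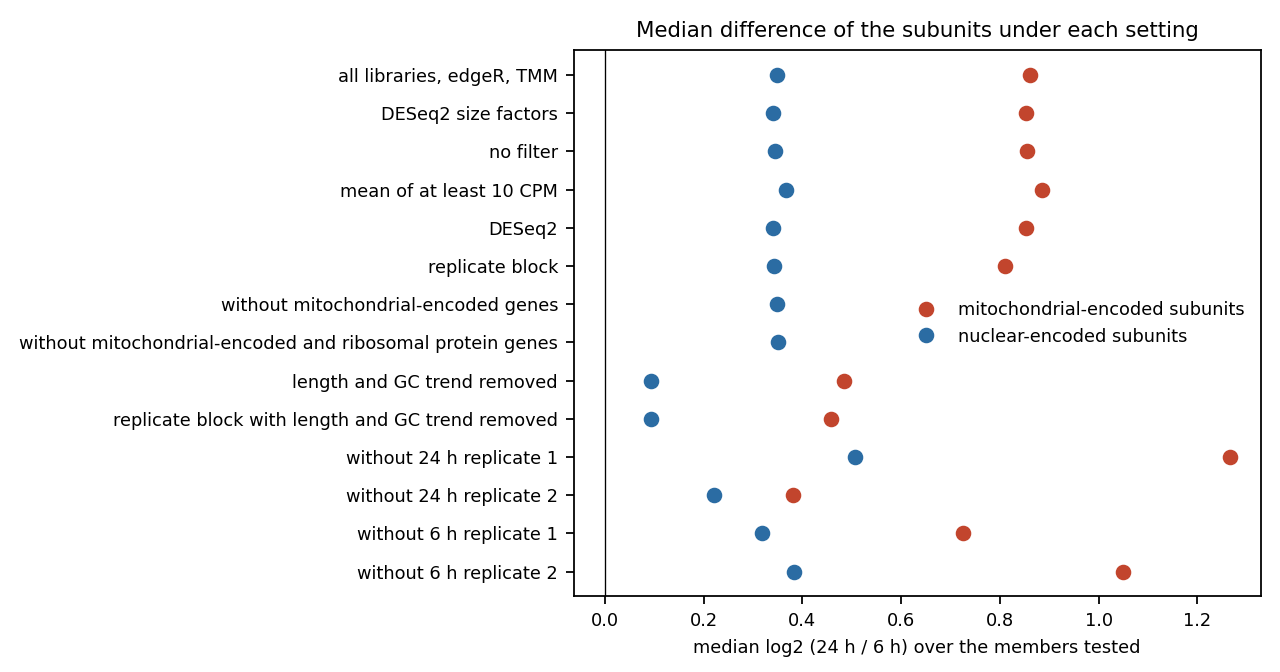
Points give the median log2 fold change of 24 h over 6 h (x axis) over mitochondrial-encoded and nuclear-encoded subunits under each setting (rows). The medians of both groups stay above 0, with the mitochondrial-encoded ones between 0.38 and 1.26 and the nuclear ones between 0.093 and 0.51, and they are closest without 24 h replicate 2.

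Of the assembly factors and other genes matched by symbol, 12 of 14 tested had a positive fold change, or 11 of 14 with the length and GC trend removed. COX20, a chaperone of MT-CO2, was at 147 and 201 CPM at 24 h and at 113 and 129 CPM at 6 h, with 0.53 ± 0.16 on the log2 scale. COX16, which also acts on that subunit, had 0.47 ± 0.12, and COX7A2L, which links complex III with complex IV in supercomplexes, had 0.52 ± 0.12 at 168 and 205.5 CPM at 24 h and 130.2 and 130.5 CPM at 6 h. These 3 rose by DESeq2 (adjusted p = 0.0272, 0.0358 and 0.0177), and were at 0.29, 0.30 and 0.37 without 24 h replicate 2. After removal of the trend they were at 0.28, 0.17 and 0.26, and COX14 was at 0.20.
COX14, which acts in the translation of MT-CO1, had 0.53 ± 0.17, and COX17, a copper chaperone, 0.50 ± 0.18, and DESeq2 did not call COX14 (adjusted p = 0.0558). COX10, which makes the heme A precursor for MT-CO1, was lower in both 24 h libraries, at 14.8 and 14.0 CPM against 17.7 and 15.7 CPM at 6 h, with -0.21 ± 0.13 and no adjusted p from DESeq2. COX15, the next enzyme of heme A synthesis, had 0.0023 ± 0.097, and ATP5SL, which despite its symbol is a complex I assembly factor now named DMAC2, had -0.057 ± 0.13 and turned to 0.076 without 24 h replicate 2. The median of the 14 such genes tested was 0.48, or 0.24 without 24 h replicate 2 and 0.14 with the length and GC trend removed. COX11, COX18, COX19 and ATP5S had values from 0.26 to 0.49 and no call. ATP5J2-PTCD1, a readthrough gene, had 1 count in all.

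Other gene lists of mitochondrial function are given for comparison, with no test of the lists. Nuclear subunits of complex I had a median of 0.39, with 33 of 36 higher at 24 h. Against 5.59% of all genes, DESeq2 called higher 12 of the 30 with an adjusted p, among them NDUFS5 (0.43) and NDUFB6 (0.66). That median was 0.20 without 24 h replicate 2 and 0.094 with the length and GC trend removed, where 26 of 36 were higher. The 7 mitochondrial-encoded subunits of complex I had a median of 0.96 with 7 of 7 higher and 0 called by DESeq2, among them MT-ND2 (0.98) and MT-ND4 (0.96). The 7 came to a median of 0.43 if 24 h replicate 2 was left out and of 0.64 with the trend removed. Assembly factors of complexes II to V outside the symbol rule had a median of 0.23, with 24 of 26 higher. DESeq2 called higher 7 of the 16 with an adjusted p, among them COA4 (0.45) and COA1 (0.61). The median of this list was 0.18 without 24 h replicate 2, and 0.19 with 24 of 26 higher once the trend was removed. Electron carriers and carriers of ADP, ATP and phosphate had a median of 0.26 with 15 of 18 higher. Of the 14 with an adjusted p, DESeq2 called 1, VDAC3 (0.48), and not the ubiquinone enzyme gene COQ5 (0.35). The median of these carriers was 0.16 both without 24 h replicate 2 and with the trend removed.
Genes that maintain, transcribe or stabilise mitochondrial RNA had a median of 0.24, with 13 of 21 higher and 0 called, among them SLIRP (0.49) and TEFM (0.53), which act in stability and elongation of mitochondrial transcripts. Leaving out 24 h replicate 2 brought that median to 0.080, and removing the trend to 0.063. Regulators of mitochondrial biogenesis had a median of -0.13 with 9 of 11 lower and 0 called, among them the coactivator gene PPRC1 (-0.34) and HCFC1 (-0.32). Their median was -0.074 without 24 h replicate 2, and it turned to 0.0041 with 6 of 11 higher once the trend was removed. The citric acid cycle had a median of -0.060 with 11 of 19 lower, and DESeq2 called SUCLG1 higher (0.51) and OGDH lower (-0.49), while PDHB had 0.34. The median of the cycle was 0.00035 without 24 h replicate 2 and -0.11 with the trend removed. Glycolysis had a median of -0.11, with 14 of 19 lower and 0 called by DESeq2, among them HK1 (-0.40) and GPI (-0.30). This median became -0.0023 when 24 h replicate 2 was left out and -0.26 when 24 h replicate 1 was. With the trend removed it was -0.10, with 15 of 19 lower. Cytosolic ribosomal protein genes, which are short like the members, had a median of 0.46 with 81 of 81 higher, and DESeq2 called 43 of the 72 with an adjusted p. That median was 0.27 without 24 h replicate 2 and 0.22 with the trend removed. For each list edgeR called 0 genes.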

How the data were processed

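The authors deposited a table of raw read counts per gene for 4 RNA-seq libraries, with hg19 coordinates and no normalization. Per the labels the libraries were made with an Illumina TruSeq RNA protocol and read as single ends, and the submitters' processing notes name STAR 2.3, hg19 and DESeq2, whereas the methods of the study describe paired ends and a later STAR. For the read counter, annotation and strand setting, these are not given in the sources used.

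Counts were tested with edgeR 4.0.16 in R 4.3.3 (TMM factors, filterByExpr, quasi-likelihood test, no replicate term), and with DESeq2 1.42.0, at a Benjamini-Hochberg adjusted p under 0.05 over all genes. Levels are CPM relative to TMM-scaled totals. Transcript lengths and GC were those of the canonical transcript of each gene in GENCODE 44, by Ensembl identifier. Whether that transcript was the one expressed was not tested, so some genes may have been fitted as too long or too short. The trend on both was removed as spline offsets with 4 degrees of freedom. Intervals are Wilson intervals (95%). The steps were tested on simulated counts, drawn for each gene apart with no shift shared by the genes of a library. That test does not cover the differences between replicates seen here. Replicates differed by more than counting noise (chi-square over degrees of freedom 31.3 for 24 h and 15.8 for 6 h). Named genes are all mitochondrial-encoded members, the SDH genes, the nuclear subunits of highest level and of highest and lowest fold change per complex at a mean of at least 5 CPM, paralog subunits, extreme assembly factors, members called, and from other lists the 2 smallest p-values. Further members are named to complete a complex and were chosen after their values were seen. Some marker genes are not reported here. Members and lists were chosen with earlier results of these data known.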

Additional observations from a re-analysis of the deposited data

How the results depend on the processing

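The count of 0 members and 0 genes called by edgeR was the same with DESeq2 size factors, without a filter, at a mean of at least 10 CPM, without mitochondrial-encoded genes, also without ribosomal protein genes, and with the length and GC trend removed. DESeq2 called 610 genes and 16 members. Replicate numbers are not said to mark a shared culture or day. The correlation of deviations between libraries of 1 number was 0.41 over genes. That of the difference of replicate 2 over replicate 1 with the difference of 24 h over 6 h was 0.64. With the replicate block edgeR called 4565 genes (18.8% of all genes higher, 17.5% lower) and 47 members (46 higher, 1 lower). With the trend removed in the same fit it called 2569 genes (1334 higher, 1235 lower) and 24 members (22 higher, 2 lower). Leaving out each library, edgeR called 1 to 3060 genes and 0 to 44 members, and DESeq2, added after seeing the data, 0 to 1471 genes and 0 to 35 members (a lone library was assumed to vary as the other time did). By edgeR these were 3060 genes and 44 members without 24 h replicate 1, 1 gene and 0 members without 24 h replicate 2, 1 gene and 0 members without 6 h replicate 1, and 909 genes and 16 members without 6 h replicate 2. DESeq2 called 1471, 1, 0 and 133 genes in that order. The cause was not tested.

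With the trend removed, without and with the replicate block, medians were 0.093 and 0.093 for nuclear subunits, 0.022 and 0.022 for complex II, 0.13 and 0.13 for complex III, 0.058 and 0.057 for complex IV, 0.058 and 0.057 for complex V and 0.14 and 0.14 for the other matched genes. Without each library they ran from 0.22 to 0.51 for nuclear and 0.38 to 1.26 for mitochondrial-encoded subunits, 0.16 to 0.76 for their difference and 0.24 to 0.63 for the other matched genes. The share of complex II had a log2 ratio of 0.36 without SDHA. Under the remaining alternatives each median kept its direction and moved by less than 1 replicate SD. That SD was 0.15 for nuclear subunits, 0.46 for mitochondrial-encoded subunits and 0.31 for their difference. The moves within it include the fall of the mitochondrial-encoded median from 0.86 to 0.48 with the trend removed, or to 0.46 with the block as well.

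Of the values of named members under the alternatives, 26 turned in sign and 524 kept sign and side of the threshold. The rest passed it, in settings that also called many other genes or in fits with a lone library at 1 time. Over all genes, DESeq2 called 610, the replicate block 4565, and the block with the trend removed 2569. The main edgeR fit called 0 members, so no turned value could belong to a member that it called. COX7C, which turned, was called by DESeq2. With the trend removed, without and with the block, the turned values were -0.0025 and -0.0036 for ATP5B, -0.16 and -0.16 for ATP5EP2, -0.14 and -0.14 for COX6B1, -0.0027 and -0.0021 for COX7C, -0.19 and -0.19 for COX8A and -0.0017 and -0.015 for MT-ATP8. With single libraries left out, values are given by edgeR and by DESeq2. Without 24 h replicate 1, ATP5B was at -0.0056 and -0.017 and UQCRC1 at -0.044 and -0.055. Without 24 h replicate 2, ATP5SL was at 0.076 and 0.067 and COX8A at -0.0035 and -0.013. Without 6 h replicate 1, ATP5D was at 0.061 and 0.057 and ATP5SL at 0.051 and 0.047, and without 6 h replicate 2 UQCRC1 was at -0.0091 and -0.015. The other end of the edgeR range was 0.12 for ATP5B, 0.15 for COX8A, 0.10 for UQCRC1, -0.17 for ATP5D and -0.21 for ATP5SL. With 2 libraries per time, a median over members rests on 4 libraries however many genes it holds.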
